A study of Rattus norvegicus with 6 samples.

Results

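The mitochondrial genome was followed here through its cytosines in reduced representation bisulfite sequencing (RRBS) of rat hippocampus, a method that reads cytosine methylation in a selected set of short genomic fragments. Every cytosine listed on chrM in both libraries was taken, whatever its context letter, which gave 3066 of the 5629211 cytosines that the 2 libraries share over all chromosomes. The context letter differed between the libraries at position 5168, and the other 3065 were analysed: 449 in CpG context (before a guanine), 510 in CHG and 2106 in CHH (H stands for any base but guanine). The B[a]P library came from Sprague-Dawley rat hippocampus after daily oral gavage with benzo[a]pyrene (B[a]P), a combustion product, at 2.0 mg/kg in corn oil. The control library came from rat hippocampus of the same strain after gavage with corn oil alone. Both were labelled 7 weeks of age, and each group had 1 library. The RRBS labels do not state the length of gavage, the sex of the rats or whether tissue was pooled. With 1 library per group, every difference below compares 2 libraries and not the conditions. Positions are rn5 coordinates as printed in the start column of the files, whose base (0 or 1) was not given, and no mitochondrial annotation of that build was used, so positions are not assigned to genes.

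Mitochondrial DNA is a small circular molecule present in many copies per cell. It encodes subunits of the respiratory chain together with the ribosomal and transfer RNAs that translate them, and its strands differ strongly in guanine and cytosine content. Bisulfite turns unmethylated cytosine into uracil, and a cytosine that remains is counted as methylated, so a level combines methylation with any cytosine that escaped conversion or was misread. Copies of mitochondrial sequence also lie in nuclear chromosomes. RRBS in its usual form cuts DNA with MspI at CCGG, where a methylated and an unmethylated site are both cut. The labels do not name the enzyme.

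The mitochondrial genome was covered almost from end to end, and at very uneven depth. Shared cytosines ran from position 26 to position 16292, and the longest stretch without one was 122 bp. The median depth was 164 reads per cytosine in the B[a]P library (quartiles 40 and 664) and 193 in the control library (45 and 892), against 50 and 55 reads on the other chromosomes. That is 3.28 and 3.51 times the depth of other chromosomes by the median, and 19.9 and 19.0 times by the mean, which a few cytosines set. Depths ranged from 10 reads, the lowest deposited, to 143966 in the B[a]P library and 162329 in the control library. In 33 windows of 500 bp, the median depth per cytosine ran from 39 to 928 reads in the B[a]P library and from 45 to 1456 in the control library, with the lowest window (positions 1000 to 1499) the same in both. Site by site, depth followed the same order in the 2 libraries (Spearman's rho 0.98 across 3065 cytosines, which share fragments and are not independent). Another 69 mitochondrial cytosines were listed in the B[a]P library alone and 866 in the control library alone, at most 28 and 32 reads deep.

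**Figure D1:**
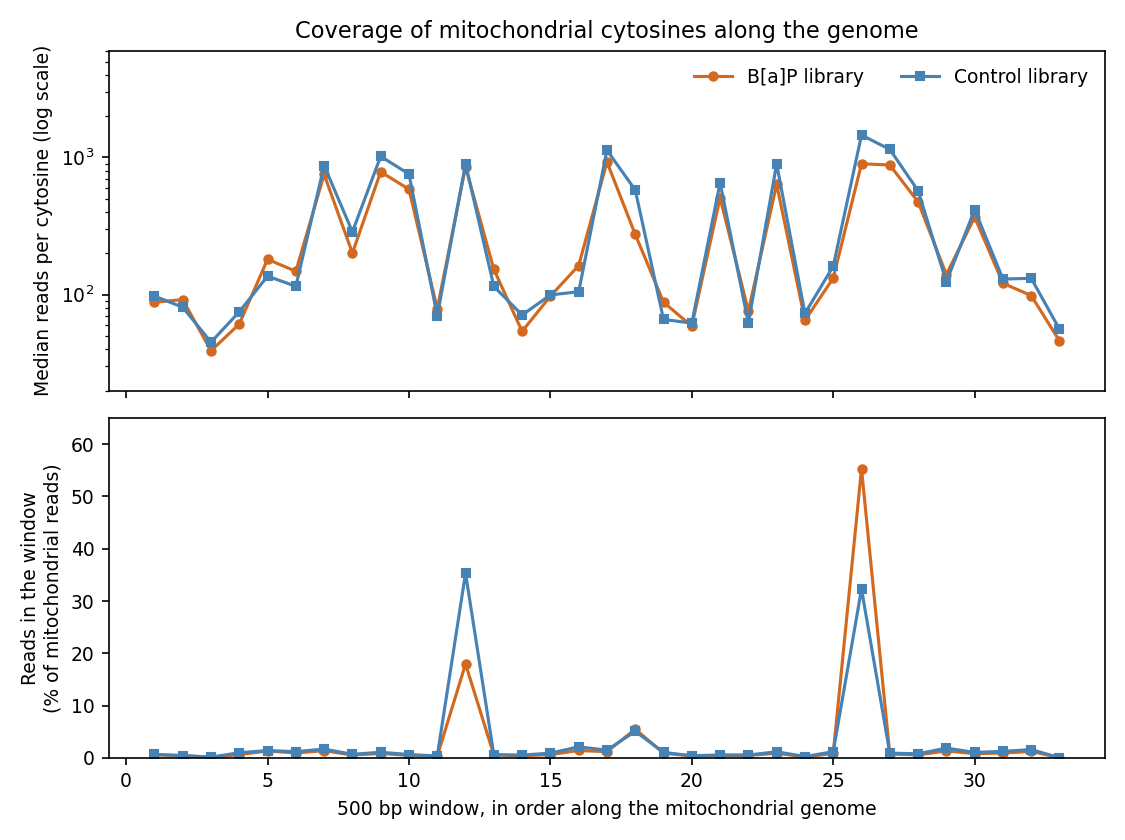
Depth along the mitochondrial genome in 33 windows of 500 bp, in genome order, for the B[a]P library (circles) and the control library (squares). The upper panel gives the median reads per cytosine on a log scale, and the lower panel the share of all mitochondrial reads in each window. The medians of the libraries track each other, while the 12th and 26th windows hold most reads and swap places, with 18.0% and 55.3% in the B[a]P library against 35.3% and 32.3% in the control library.

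The reads were concentrated in 2 short blocks. Reads are counted here once for each cytosine they cover. The 26 cytosines with at least 10000 reads in both libraries were 0.848% of the mitochondrial cytosines, and took 67.6% of the mitochondrial reads in the B[a]P library and 61.4% in the control library. The first block holds 10 of them, from position 5722 to 5781, and the second holds 16, from 12762 to 12875. No cytosine elsewhere exceeded 6421 reads in the B[a]P library or 6723 in the control library. The first block had a median of 68057 reads in the B[a]P library and 162150 in the control library, a ratio of 0.420. The second block went the other way, with 143712 against 84807 reads, a ratio of 1.69. Which block was deeper thus differed between the libraries, and no replicate shows how far these depths vary from one library to another.

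The deep CpG cytosines all lay on 1 strand. No column gives the strand, but a CpG reads the same on both strands, so that 2 CpG cytosines at adjacent positions are the plus strand cytosine and then the minus strand cytosine of the same CpG. All 6 CpG cytosines among the 26 deep ones were the second, minus strand member of such a pair. Their partners were far shallower: at positions 12784 and 12785 the plus strand cytosine had 734 reads and the minus strand cytosine 143678 in the B[a]P library, with 1450 and 84667 in the control library. Over each block, the deep cytosines had 19.7 (first block) and 213 (second block) times the median depth of the other cytosines between them in the B[a]P library, and 70.9 and 60.2 times in the control library.

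The tilt towards the minus strand was not limited to the blocks. Among 145 mitochondrial CpG pairs with both cytosines in both libraries, the second cytosine was deeper in 131 (90.3%) in the B[a]P library and in 132 (91.0%) in the control library. The median ratio of the second to the first was 14.3 and 12.8. On the other chromosomes the second cytosine was deeper in 49.3% and 49.8% of 289425 pairs, and the median ratio was 1 in both libraries. Most statements on mitochondrial CpG levels below therefore rest on minus strand reads. Outside the letter groups described below, the pooled levels of the first and second cytosines were close, at 0.324% and 0.347% in the B[a]P library and 0.361% and 0.341% in the control library.

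**Figure D2:**
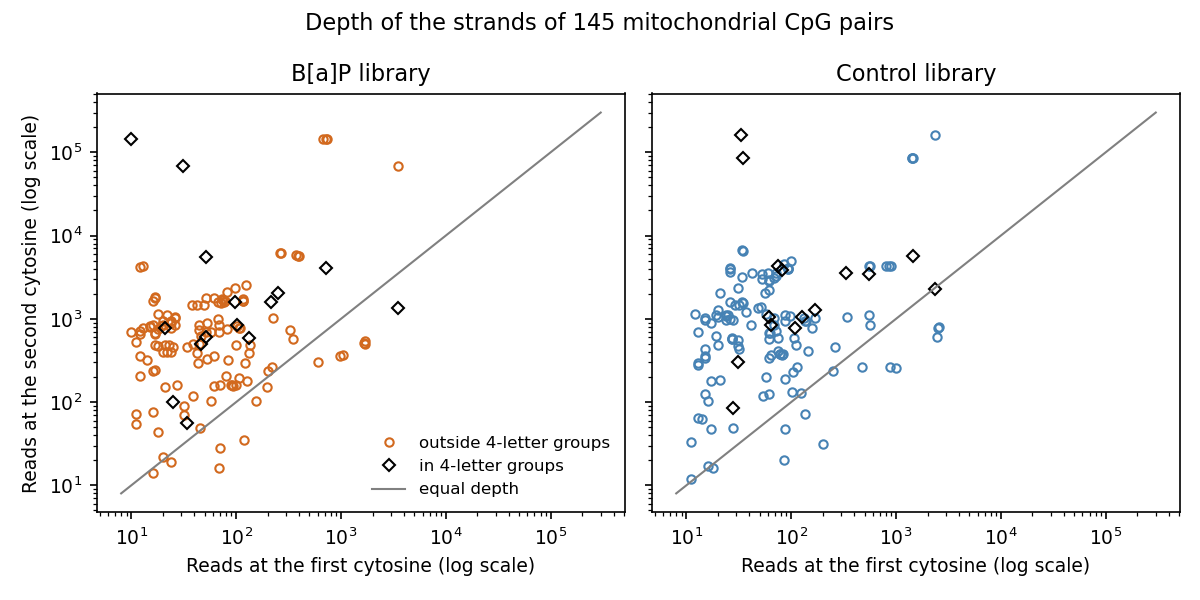
Reads at the first (plus strand) and second (minus strand) cytosine of 145 mitochondrial CpG pairs, on log axes, in the B[a]P library (left) and the control library (right). Each symbol is a CpG pair, diamonds are pairs within 4-letter groups (CHG, CpG, CpG, CHG), and the line marks equal depth. Most pairs lie above the line, 131 in the B[a]P library and 132 in the control library.

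Methylation levels were low in every context. Pooled over reads, CpG cytosines were at 1.51% in the B[a]P library (14965 of 992999 reads; exact 95% interval 1.48 to 1.53) and 1.86% in the control library (19850 of 1065934; 1.84 to 1.89). CHG cytosines were at 0.392% (0.377 to 0.406) and 0.461% (0.447 to 0.475), and CHH cytosines at 0.324% (0.318 to 0.331) and 0.362% (0.355 to 0.369). These intervals are exact binomial and cover counting error only. Reads amplified by PCR can copy the same molecule, and duplicate removal is not given, so reads are not taken as independent molecules. On the other chromosomes the same measure gave 20.4% and 17.3% for CpG, 0.613% and 0.639% for CHG, and 0.667% and 0.685% for CHH. Mitochondrial CHG and CHH cytosines were thus lower than those of the other chromosomes in both libraries, and in both genomes the non-CpG levels were higher in the control library than in the B[a]P library. Whether that shift of the whole library has a part in the mitochondrial differences was not tested.

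The median site level was under the pooled level in every context. It was 0.191% in the B[a]P library and 0.244% in the control library for CpG, 0.167% and 0.215% for CHG, and 0% and 0.188% for CHH. The mean site level of CHH went the other way, at 0.485% and 0.595% against 0.324% and 0.362% pooled. At 1019 of the 3065 cytosines neither library had a methylated read. Such a 0 is not evidence of absence at this depth: 3 counts, the limit that a count of 0 allows, correspond to 1.83% and 1.55% at the median depths, and to 30.0% at 10 reads. Among the 384 cytosines with at least 1000 reads in both libraries, 5 had no methylated read in the B[a]P library and 1 in the control library.

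A few cytosines carried most methylated reads. In the B[a]P library the 10 cytosines with the most held 63.8% of 26516 methylated mitochondrial reads, and in the control library 62.9% of 34447. The ranking describes the library in which it was made. Read in the other library, the 10 cytosines chosen in the control library held 59.4% of the methylated reads of the B[a]P library, and those chosen in the B[a]P library 57.1% of the control library's. The lists shared 6 cytosines, 60% of each. All of them lay in the deep blocks, and the 10 of each list held 30.9% and 25.4% of all mitochondrial reads of their library, so depth contributed to a place in the list.

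The same 2 CpG cytosines led in both libraries, and their level was high as well as their depth. Position 12875, the last deep cytosine of the second block, had 7066 methylated of 143025 reads in the B[a]P library (4.94%; 95% interval 4.83 to 5.05) and 4469 of 84842 in the control library (5.27%; 5.12 to 5.42). Position 5781, the last of the first block, had 4452 of 67715 (6.57%; 6.39 to 6.76) and 11613 of 161199 (7.20%; 7.08 to 7.33). Together they held 43.4% and 46.7% of the methylated reads on 4.78% and 5.07% of the reads. The other deep CpG cytosine of the first block, position 5748, was at 0.179% and 0.195%. Those of the second block, at 12785, 12801 and 12857, were at 0.366%, 0.329% and 0.452% in the B[a]P library and 0.296%, 0.416% and 0.564% in the control library. The highest of these deep CpG levels, 0.564%, was thus far under the lowest of the 2 leading cytosines, 4.94%. The shallower CpG cytosine at 5747, also inside the first block, was at 0.719% (25 of 3475 reads) and 0.717% (17 of 2371).

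**Figure D3:**
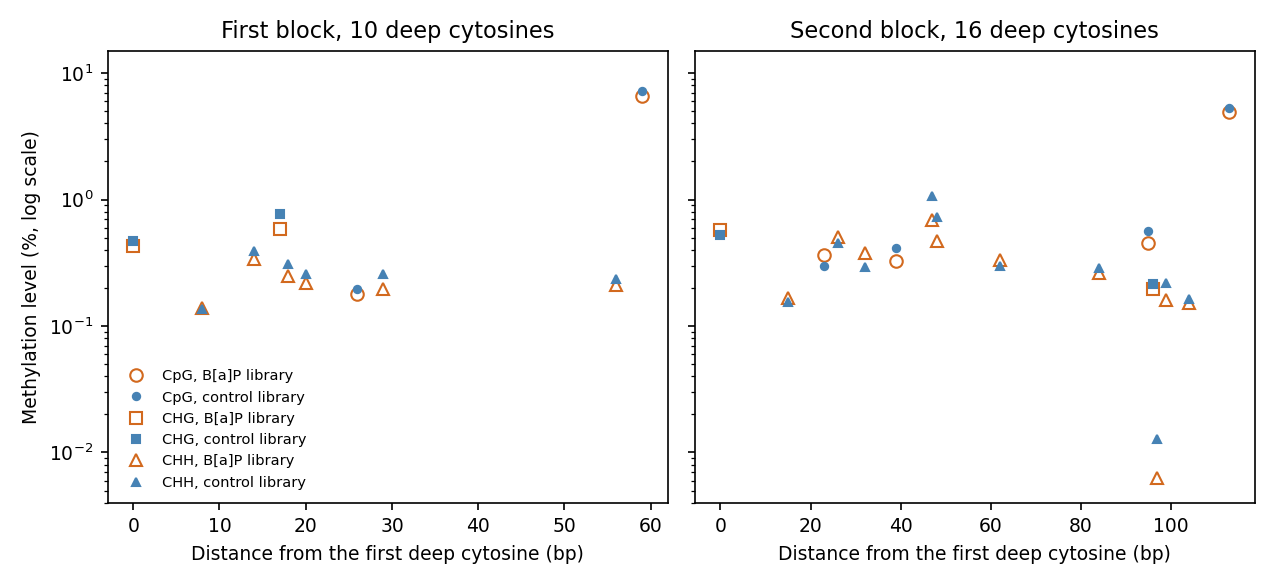
Methylation level on a log scale of the 26 cytosines with at least 10000 reads in both libraries, by distance in bp from the first deep cytosine of each block. Open symbols are the B[a]P library and filled symbols the control library, with circles for CpG, squares for CHG and triangles for CHH. In each block the last cytosine, a CpG, lies at 4.94% to 7.20% while the 24 others lie between 0.00626% and 1.06%.

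The remaining cytosines of the lists had many methylated reads at levels under 1.1%. In the second block, the CHH cytosines at 12809 and 12810 were at 0.685% and 0.467% in the B[a]P library and 1.06% and 0.734% in the control library. Those at 12788, 12794 and 12824 were at 0.510%, 0.376% and 0.334% in the B[a]P library and 0.451%, 0.290% and 0.298% in the control library. The CHG cytosine at 12762 was at 0.574% and 0.520%. In the first block, the CHG cytosines at 5722 and 5739 were at 0.430% and 0.587% in the B[a]P library and 0.473% and 0.766% in the control library. The CHH cytosines at 5736 and 5740 were at 0.338% and 0.247% in the B[a]P library and 0.395% and 0.308% in the control library. The 5 deepest cytosines over both libraries, at 5739, 5740, 5742, 5748 and 5751, lay in the first block, and the CHH cytosines at 5742 and 5751 among them were at 0.220% and 0.197% in the B[a]P library and 0.260% and 0.256% in the control library.

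Levels within a block differed between cytosines by more than counting error, and in like order in both libraries. Across the 24 deep cytosines other than the 2 leading ones, the levels of the libraries gave Spearman's rho of 0.95 and Pearson's r of 0.92. The points lie in 2 short blocks, come from 2 libraries and are not independent, and the values are a description. The lowest was the CHH cytosine at 12859, with 9 methylated of 143717 reads (0.00626%; 95% interval 0.00286 to 0.0119) and 11 of 85282 (0.0129%; 0.00644 to 0.0231). Its neighbours at 12858 and 12861 were at 0.197% and 0.160% in the B[a]P library and 0.216% and 0.221% in the control library. Position 12859 was singled out after its values were seen. Its level was the lowest of the 26 deep cytosines in both libraries.

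Both leading cytosines lie within a run of 4 adjacent letters, CHG, CpG, CpG and CHG, which is what the sequence CCGG gives when both of its strands are read. The pattern was looked for over the mitochondrial genome after the leading sites had been seen, and it uses letters and positions only. It occurred 16 times. The first block lies between the groups that start at 5719 and 5779, 60 bp apart, and the second between those at 12759 and 12873, 114 bp apart. Other neighbouring groups were 198 bp apart (starts 8683 and 8881; deepest cytosine between them 6421 and 5551 reads), 207 bp apart (5779 and 5986; 1094 and 1468 reads) or at least 426 bp apart. The letters alone do not prove CCGG, since other sequences can give the same 4 letters.

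CpG cytosines of these groups held most methylated CpG reads. They numbered 31, or 6.90% of the mitochondrial CpG cytosines, and held 82.6% of methylated CpG reads in the B[a]P library and 86.5% in the control library on 23.8% and 26.3% of CpG reads. Their pooled level was 5.23% (95% interval 5.14 to 5.32) and 6.12% (6.03 to 6.21). These pooled values mostly restate the 2 leading cytosines, from which the pattern was taken. Those 2 held 43.4% and 46.7% of all methylated mitochondrial reads, and all 31 held 46.6% and 49.9%. With each cytosine weighted equally, the 31 were at 2.05% and 2.24%. The 418 CpG cytosines outside the groups were at 0.344% (0.331 to 0.358) and 0.340% (0.328 to 0.354), near the levels of CHG and CHH. A CHG letter on 1 side only did not go with the high level: 148 CpG cytosines of pairs with a CHG letter on 1 side were at 0.360% and 0.361%, and the other 270 at 0.333% and 0.321%. Nor did the CHG cytosines of the groups themselves share it. None of those with at least 100 reads reached 1% in either library.

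**Figure D4:**
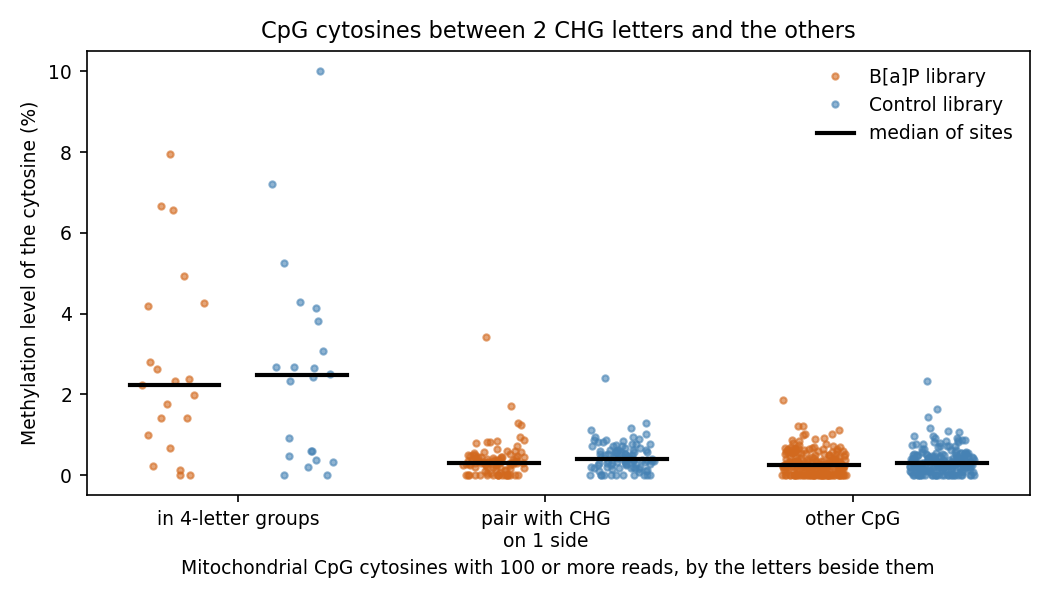
Methylation level of each mitochondrial CpG cytosine with 100 or more reads, by the letters beside it, in the B[a]P library (left column of each pair) and the control library (right column), with bars at the median of the sites. Cytosines of 4-letter groups have medians of 2.23% and 2.48% and reach 7.94% and 10.01%, while those outside the groups reach 3.42% and 2.40%.

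The high level was found in many of the groups rather than confined to the 2 leading cytosines. Among group CpG cytosines with at least 100 reads, 16 of 21 (B[a]P library) and 13 of 22 (control library) were at 1% or more. Outside the groups it was 10 of 296 and 11 of 294. The group counts include the 2 leading cytosines, from which the pattern was taken. The B[a]P count also takes in 1784, with 1 of 100 reads, and 3386, with 2 of 101 against 0 of 128 in the control library. By strand, 11 of 15 and 10 of 15 minus strand cytosines of the groups reached 1%. For the plus strand it was 5 of 6 and 3 of 7. Position 5721, the minus strand cytosine on the other side of the first block, was at 7.94% (107 of 1347 reads) and 10.01% (226 of 2257), and its plus strand partner at 5720 at 4.19% (145 of 3459) and 4.29% (101 of 2353). Position 12761 was at 6.67% (274 of 4106) and 4.14% (236 of 5696), and 12760 at 4.27% (31 of 726) and 3.82% (55 of 1440). Away from the blocks, 8883 was at 2.33% and 2.51%, 7533 at 2.37% and 2.69%, 15735 at 2.23% and 2.66%, 2509 at 2.63% and 2.32%, and 8684 at 2.80% and 2.69%. Of the 1723 mitochondrial cytosines with 100 reads or more in both libraries, 13 were at 2% or more in both, and 11 of the 13 were CpG cytosines of these groups. The other two, both CHH and named after their values were seen, were 5772, at 2.87% (97 of 3381 reads) and 4.84% (101 of 2088), and 2672, at 2.19% (3 of 137) and 7.27% (8 of 110).

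Low groups could be described in part by their depths. In CCGG the first 2 cytosines are on the plus strand and the last 2 on the minus strand. In 4 groups, starting at 3385, 5986, 9307 and 12233, an outer CHG cytosine had within 10% of the reads of the CpG cytosine that CCGG would put on the opposite strand. For the group at 5986 this rests on 13 reads at each of both cytosines in the control library, since neither is listed in the B[a]P library. The minus strand CpG cytosines of the 4 groups were at 0 to 0.662% in the B[a]P library and 0 to 0.473% in the control library. Of the remaining 12 groups, 11 had 100 reads or more at that cytosine in each library. Their levels ran from 1% to 7.94% (median 2.37%) in the B[a]P library and from 0.331% to 10.01% (median 2.69%) in the control library. The lowest control value, 0.331%, was at 1784, with 1 of 302 reads, and 1 of 100 in the B[a]P library. This split was made after the levels were seen and has no test.

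The same pattern was measured on the other chromosomes, where it occurred 52622 times among shared cytosines. To set it against mitochondrial DNA, groups were kept if the other CpG cytosines within 100 bp (at least 3) pooled to under 1% in both libraries, a choice that uses the neighbours' levels and not those of the groups. In 22854 such nuclear groups, the CpG cytosines were at 1.87% (95% interval 1.85 to 1.88) in the B[a]P library and 2.43% (2.42 to 2.44) in the control library, against 0.507% and 0.592% for their neighbours. Of 13 mitochondrial groups with all 4 cytosines shared, 11 met the same conditions, not those at 5719 and 5779, and in these 11 they were at 4.66% (4.55 to 4.76) and 4.64% (4.51 to 4.76), against 0.364% and 0.387%. A single cytosine, 12875, held 7066 of the 7339 methylated reads behind the mitochondrial value in the B[a]P library and 4469 of 4911 in the control library. Without it the mitochondrial groups were at 1.88% (1.66 to 2.11) and 2.10% (1.91 to 2.30), beside 1.87% and 2.43% for the nuclear groups. CpG cytosines of the groups were thus above their neighbours in both genomes and both libraries, while among these 11 groups a pooled level above that of nuclear groups rested on position 12875. Of the 5 groups that the comparison leaves out, those at 5719, 5779 and 12759 have CpG cytosines with 100 reads or more at 5720, 5721, 5781, 12760 and 12761, which were between 3.82% and 10.01%. In the other two, at 5986 and 13823, the minus strand CpG cytosine was at 0.236% and 1.41% in the B[a]P library and 0.368% and 3.08% in the control library. Whether the level at these cytosines reflects methylation or the making of the library was not tested.

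No mitochondrial cytosine met the threshold for a difference between the libraries. Fisher's exact test (2-sided) was run at all 5628789 shared cytosines with Benjamini-Hochberg adjustment over all of them, and a site was called at an adjusted p under 0.05 and a difference of 25 percentage points. It called 0 of 3065 mitochondrial cytosines, against 0.0352% of all cytosines, and again 0 at 10 points (0.0406% of all). The largest mitochondrial difference was 12.5 points, so no mitochondrial cytosine could reach 25 points, whatever its p. At such shares few of 3065 cytosines would be called, so the 0 is not a contrast with the other cytosines. Without adjustment, 51 mitochondrial cytosines (1.66%) had p under 0.05, against 0.755% of all cytosines. Of these 51, 15 were higher and 36 lower in the B[a]P library. Among all cytosines, 23953 were higher (0.426%) and 18556 lower (0.33%). With no minimum difference, 5 mitochondrial cytosines (0.163%) passed the adjusted threshold, against 0.0429% of all (0.0195% higher and 0.0234% lower in the B[a]P library). Such depths let small differences pass, and any reads that copy the same molecule make these p-values too small.

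Of those 5 cytosines, 4 were lower and 1 was higher in the B[a]P library, and all 5 differed by under 3 points. The CHH cytosine at 12809 was 0.38 points lower in the B[a]P library (adjusted p = 2.4e-17, Fisher's exact test with Benjamini-Hochberg adjustment), and its neighbour at 12810 was 0.27 points lower (adjusted p = 5.4e-12). These adjacent cytosines of the second block had near equal depths, 143886 and 143891 reads in the B[a]P library, so they probably share reads and are not independent. The leading CpG cytosine at 5781 was 0.63 points lower (adjusted p = 0.00023, the same exact test), and the CHG cytosine at 5739 of the same block was 0.18 points lower (adjusted p = 0.0064). The CpG cytosine at 12761 was 2.53 points higher (adjusted p = 0.00013, the same exact test). The other leading CpG cytosine, 12875, was 0.33 points lower and did not pass (adjusted p = 0.91, the same exact test). Over the 384 cytosines with at least 1000 reads in both libraries, 149 were higher and 235 lower in the B[a]P library, with a median absolute difference of 0.130 points and a maximum of 2.53.

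The pooled CpG difference between the libraries lay in the letter groups. The level of all 449 CpG cytosines was 1.51% in the B[a]P library and 1.86% in the control library, while outside the groups the values were 0.344% and 0.340%, with overlapping intervals. The control library had its deepest reads on the first block, whose leading cytosine was at 6.57% and 7.20%. The B[a]P library had its deepest reads on the second, whose leading cytosine was at 4.94% and 5.27%. Whether this mix of reads has a part in the pooled difference was not tested. CHG and CHH cytosines kept a lower level in the B[a]P library, 0.392% against 0.461% and 0.324% against 0.362%.

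High levels at single cytosines were mostly found at shallow sites. At 5% or more there were 36 mitochondrial cytosines in the B[a]P library, of which 33 had under 50 reads and 25 rested on 1 methylated read, and 56 in the control library, of which 50 had under 50 reads and 35 rested on 1. The highest in the B[a]P library was the CHH cytosine at position 37, with 2 of 16 reads (12.5%; 95% interval 1.55 to 38.3) against 0 of 13 in the control library. The highest in the control library was the CHH cytosine at 867, with 2 of 14 reads (14.3%; 1.78 to 42.8) against 1 of 16 in the B[a]P library. Among the 5 CpG cytosines with the highest level over both libraries together, 5721, 5781 and 12761 are described above. Position 12874, the plus strand partner of 12875, had 0 of 10 methylated reads in the B[a]P library and 3 of 35 (8.57%; 1.80 to 23.1) in the control library. Position 1210, outside the groups, had 1 of 21 and 1 of 17.

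Outside the letter groups the level also stayed low along the genome. In the 33 windows, pooled over all contexts, it ran from 0.294% to 0.725% (median 0.360%) in the B[a]P library and from 0.287% to 0.534% (median 0.411%) in the control library. The highest B[a]P value came from the last window, positions 16000 to 16499, which held 23 cytosines and 11 methylated of 1518 reads, and the control library had 7 of 1522 there. By depth, cytosines outside the groups with 10 to 49 reads pooled to 0.582% and 0.706%, those with 200 to under 1000 reads to 0.365% and 0.429%, and those with 1000 to under 10000 reads to 0.358% and 0.390%. Shallow cytosines were thus slightly above deep ones in both libraries. Which strand or fragment they came from was not separated.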

How the data were processed

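RRBS libraries were made from hippocampal DNA, per the labels' protocols. Per the file headers, the deposited tables hold read counts, methylated and unmethylated, for every listed cytosine, beside a level in percent that equalled the one computed from those counts. Among tools and builds, bcl2fastq, rn6 and rn5 appear in the submitters' processing notes. The aligner, methylation caller, trimming of fragment ends, duplicate removal and treatment of reads shared with nuclear copies of mitochondrial DNA are not given in the sources used here, and each could change a level or a depth. Every deposited site had 10 reads or more. Positions on chromosome 1 reached 290084085, past its end in rn6, and were taken as rn5. Upper-case letters marked sites with at least 1 methylated read and were read as the context alone.

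Sites were joined by position, and 422 sites with differing context (1 mitochondrial) were left out. Groups of 1 library were set by the titles. Fisher's exact test was computed with numba 0.67.0 in Python 3.11.15, checked against scipy 1.17.1 and tested on simulated data. Intervals are exact binomial at 95%. Named sites were the 10 with the most methylated reads in each library, the 5 smallest adjusted p (none was called), the 5 deepest and the 5 CpG with the highest level. Others named are said to be so or belong to the letter groups. Members and rules were chosen with earlier results of these data known, and the letter groups after their levels were seen. The RNA tables were not used.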

Additional observations from a re-analysis of the deposited data

How the results depend on the processing

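The mitochondrial values depended on how sites were weighted more than on the coverage minimum. With each site weighted equally, the levels in B[a]P and in control were 0.416% and 0.484% for CpG, 0.369% and 0.432% for CHG, and 0.485% and 0.595% for CHH. Without the 10 sites with the most methylated reads they were 0.438% and 0.447%, 0.295% and 0.344%, and 0.279% and 0.320%. Without CpG cytosines of 4-letter groups, an alternative chosen after seeing the data, pooled CpG was at 0.344% and 0.340%. The direction between the libraries turned in pooled reads, but not with each of these sites weighted equally (0.295% and 0.354%). With 200 reads or more in both libraries, CHH in the control library was at 0.355%. The minimum of 50 reads and the use of sites of 1 library moved none of the 6 levels beyond its interval. The 5 sites with the most methylated reads held 53.0% and 55.1% of them, 20 sites 75.2% and 72.4%, and the 10 chosen in the other library 59.4% and 57.1%. Depth relative to other chromosomes was 19.9 and 19.0 times by the mean, and 6.49 and 6.54 times over CpG sites. The window with the most reads held 56.1% and 35.7% at 1000 bp, against 55.3% and 35.3% at 500 bp. The count of called sites was 0 with adjustment within the context, with 50 reads or more and at 10 points, and 5 with no minimum difference. Those 5 passed under the first 2 of these settings as well. The causes were not tested. No replicate could be left out, since each group had 1 library, so the spread between animals is unknown. Nuclear letter groups near CpG under 0.5%, a limit chosen after seeing the data, were at 2.13% and 2.79%. The 11 mitochondrial letter groups near CpG under 1%, taken without their deepest cytosine as another such alternative, were at 1.88% and 2.10%. The groups at 5719, 5779 and 12759, with CpG cytosines at up to 10.01%, are not among these 11.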
